A study of Mus musculus with 12 samples.

Results

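Astrocyte genes that include the glial glutamate transporters were examined in RNA from whole mouse brain. The genes are Slc1a2, Slc1a3, Atp1b2, Slc4a4, Aqp4, Gja1, Gjb6, Gfap, Aldh1l1 and Sox9. They were taken as a list of symbols with no cutoff on a measured value, but earlier results of these data were known. All 10 were found among the 19775 genes of the deposited table. RNA was sequenced from 12 male C57BL/6N mice at about postnatal day 120, with 4 mice in each of 3 genotypes. Wild-type mice (WT) carried an intact Slc6a20a gene, heterozygous mice (HT, Slc6a20a+/-) lacked exon 3 of Slc6a20a on 1 allele, and homozygous mice (HM, Slc6a20a-/-) lacked it on both. Heterozygous parents were crossed to obtain all 3 genotypes, and the exon was missing from every cell type of the mutants rather than from astrocytes alone. The labels name no drug or other treatment. Each value below is a normalized read count, that is, the estimated number of reads of a gene after the authors scaled every mouse to a common depth.

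Astrocytes take up the glutamate that neurons release, and the transporters GLT-1 (encoded by Slc1a2) and GLAST (Slc1a3) carry out most of that uptake. The uptake runs on the sodium gradient that the sodium pump maintains, and astrocytes also move water, potassium and bicarbonate across membranes that lie against blood vessels and synapses. SLC6A20A transports proline and glycine, and glycine is a co-agonist of the NMDA type of glutamate receptor, so the comparison asks how genes of the glutamate uptake system and other defining genes of astrocytes stood in mice with 1 or no intact copy of the transporter.

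The targeted gene followed the labels. Slc6a20a (ENSMUSG00000036814) had 584 to 750 normalized counts in WT mice, 310 to 372 in HT mice and 55.6 to 76.5 in HM mice, so the 3 genotypes did not overlap. Log2 fold changes of -0.97 (HT) and -3.38 (HM) had adjusted p-values of 9.38e-04 and 1.75e-08 (limma, Benjamini-Hochberg adjustment over all genes tested). The scaled totals of the 12 mice lay between 33284951 and 33748623 normalized counts, and the numbers of reads before scaling are not given in the sources used here. Olfactory bulb markers summed to 741 to 1316 normalized counts in HM mice against 456 to 763 in the others. Choroid plexus markers summed to 9682 to 17666 in HM mice and 15064 to 19538 in WT mice, and hemoglobin genes with Alas2 to between 5859 and 29022 over the 12 mice. The part of these differences in the results below was not tested. Since the tissue was whole brain, a difference in the number of astrocytes and a difference in RNA of a gene per astrocyte cannot be told apart.

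To show the start regions of genes that the results turn on, promoter windows of the mouse genome (RefSeq, GRCm38.p6) were read, each with 250 bases before and 50 bases after an annotated transcript start. Windows were found for 7 of the 10 genes, with 2 for Slc4a4, and none for Sox9, Atp1b2 and Aqp4. Capitals mark matches, sought on both strands. The TATA box was searched as TATAAA, and 13.6% of all 32851 windows of the same length held it. The CCAAT box (CCAAT) was found in 37.4% of all windows and the STAT site (TTCNNNGAA) in 8.30%. The SOX site (ACAATGG) was found in 3.66%. Of the sites of nuclear factor I (NFI), the half-site (TTGGCA) was found in 14.1% and the palindrome in 0.0365%. The half-site begins like the palindrome and overlaps the reverse of the CCAAT box. The windows of Slc4a4, Slc1a3 and Gfap are printed 5′ to 3′ along the gene, because Slc4a4 stood above WT in both mutants from a gene with unlike start regions, and the other 2 give a transporter and a filament gene that share a motif. The first Slc4a4 window lies at chr5:88887010-88887309 on the plus strand and the second at chr5:89027716-89028015 on the plus strand, Slc1a3 at chr15:8710758-8711057 on the minus strand and Gfap at chr11:102897151-102897450 on the minus strand.
Slc4a4, first window: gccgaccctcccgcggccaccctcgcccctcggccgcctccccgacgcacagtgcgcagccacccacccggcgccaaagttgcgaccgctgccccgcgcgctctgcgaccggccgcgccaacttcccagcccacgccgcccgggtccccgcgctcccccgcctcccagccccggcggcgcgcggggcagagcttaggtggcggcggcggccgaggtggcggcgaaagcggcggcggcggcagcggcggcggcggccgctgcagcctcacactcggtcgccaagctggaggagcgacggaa
Slc4a4, second window: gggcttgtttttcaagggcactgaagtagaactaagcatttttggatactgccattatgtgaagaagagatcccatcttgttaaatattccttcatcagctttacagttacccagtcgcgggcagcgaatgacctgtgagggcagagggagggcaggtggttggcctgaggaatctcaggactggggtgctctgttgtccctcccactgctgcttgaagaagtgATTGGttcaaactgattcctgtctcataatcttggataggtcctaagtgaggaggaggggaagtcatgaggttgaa
Slc1a3: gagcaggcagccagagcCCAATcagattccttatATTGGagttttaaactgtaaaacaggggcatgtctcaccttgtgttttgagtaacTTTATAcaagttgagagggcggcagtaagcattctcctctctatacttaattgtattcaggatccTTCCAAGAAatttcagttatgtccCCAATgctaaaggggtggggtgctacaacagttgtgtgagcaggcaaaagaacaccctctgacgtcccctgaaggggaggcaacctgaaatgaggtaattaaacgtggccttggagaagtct
Gfap: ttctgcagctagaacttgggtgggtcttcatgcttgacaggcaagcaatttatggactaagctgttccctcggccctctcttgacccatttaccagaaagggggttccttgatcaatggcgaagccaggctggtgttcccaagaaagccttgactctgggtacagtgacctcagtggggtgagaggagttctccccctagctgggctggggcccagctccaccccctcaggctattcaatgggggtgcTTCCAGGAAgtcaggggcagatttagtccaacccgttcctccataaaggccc

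The first Slc4a4 window held 50 CpG dinucleotides and 80% G and C, against a median of 7 CpG over all windows, and it matched none of the letters searched. The second held 3 CpG and 1 reverse CCAAT box. Gene-level values do not tell transcripts from these starts apart. Slc1a3 and Gfap each held 1 STAT match, TTCCAAGAA in Slc1a3 and TTCCAGGAA in Gfap, and Slc1a3 also held 1 TATA match and 3 CCAAT boxes. These matches describe letters in a window and no binding was measured.

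All 10 genes were well detected, and their levels spanned a wide range. To compare genes, the mean normalized count over the 12 mice was divided by the length of the longest basic transcript in the GENCODE M21 annotation. Slc1a2 led with 7267 normalized counts per kb, higher than 99.1% of the genes tested. Atp1b2, the beta 2 subunit of the sodium pump and an adhesion molecule of glia, had 5467 per kb, and Slc1a3 had 3861. Gfap, the intermediate filament of astrocytes, and Gja1, which encodes connexin 43, stood at 1922 and 1905 per kb, and this pair overlapped in each of the 3 genotypes. The second astrocyte connexin, Gjb6 (connexin 30), followed at 1044 per kb. Slc4a4, the electrogenic sodium bicarbonate cotransporter, had 797 and Aqp4, the water channel of astrocyte endfeet, had 689, and these neighbours overlapped in 1 of the 3 genotypes. Aldh1l1, a folate enzyme widely used as an astrocyte marker, had 450 per kb. The transcription factor gene Sox9 was lowest at 165 per kb, a level above 48.8% of the genes tested. The other neighbours in this order did not overlap in any genotype.

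No gene of the 10 passed the adjusted limma test in either mutant, but nearly all stood slightly above WT in both. The paper fitted DESeq2 to counts of the same mice, and lists Atp1b2 as higher in homozygous mice at an adjusted p under 0.05. In HT mice, 10 of 10 had a log2 fold change above 0, against 50.0% of all genes tested, with a median of 0.05. In HM mice, 9 of 10 were above 0, against 49.8% of all genes, with a median of 0.06 and Gjb6 as the exception. The medians over all 18004 genes tested were 0.00 in both comparisons. Across the genome, 0.00555% of genes passed an adjusted p of 0.05 in HT mice and 0.0111% in HM mice. Both comparisons used the same 4 WT mice, so their directions are not separate observations. The lead in HT mice rested in part on WT replicate 2: without that mouse, 7 of 10 were above 0 and the median was 0.03, and in HM mice the count was again 9 of 10, with a median of 0.01. Without WT replicate 4 the medians were instead 0.08 in HT mice and 0.10 in HM mice. When mice were compared within sets whose animal numbers began alike (as a block in limma), 10 of 10 genes were above 0 in HM mice, with a median of 0.14. That median rests on WT replicates 1 and 2, each set against 1 HM mouse (replicates 3 and 4). WT replicate 4 had no part in it. The labels do not say what the numbers, taken here as animal numbers, stand for.

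**Figure D1:**
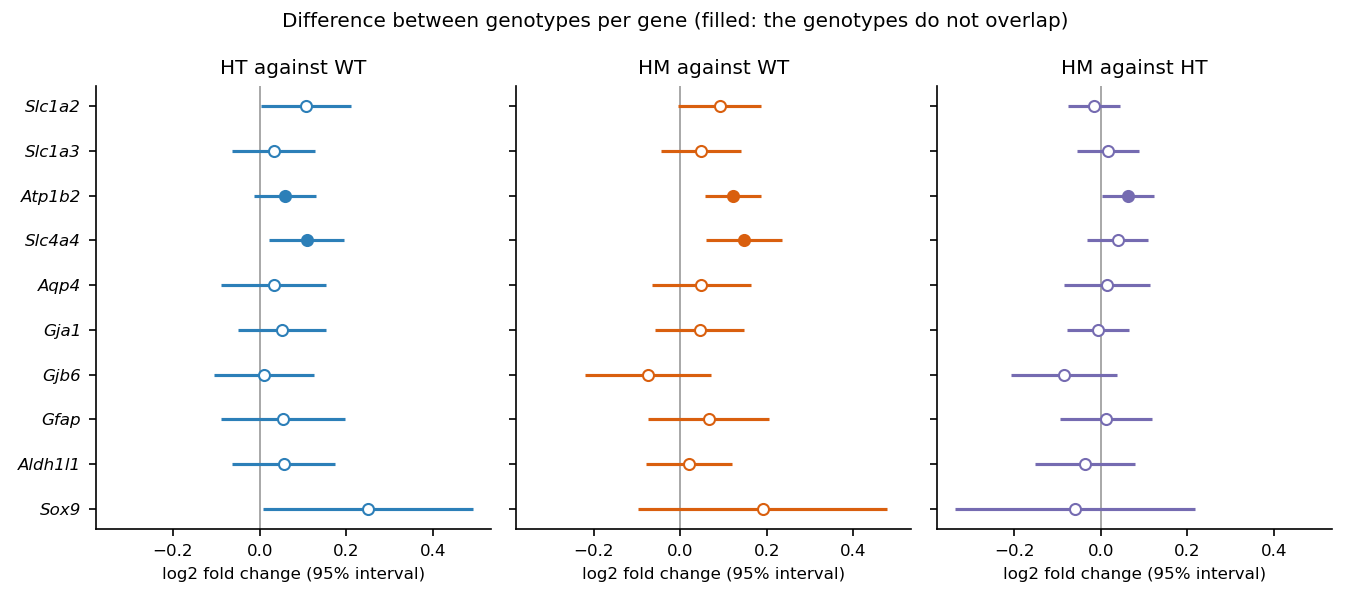
Log2 fold change of each of the 10 astrocyte genes in HT against WT, HM against WT and HM against HT mice, with its 95% interval (limma, 4 mice per genotype). Filled points mark genes whose genotypes do not overlap. In HM mice the intervals of Atp1b2 (0.06 to 0.19) and Slc4a4 (0.06 to 0.24) lie above 0, and the other intervals of that panel reach it.

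By unadjusted p, 3 of the 10 genes were under 0.05 and higher in HT mice, namely Slc4a4, Slc1a2 and Sox9, where 3.16% of all genes were. In HM mice they were 2 of 10, Atp1b2 and Slc4a4, where 3.93% of all genes were. The HT count was 1 with the block for the start of the animal number, the length and GC correction, rescaling to equal totals or a variance prior without a trend, and without WT replicate 2 or HT replicate 4, and the HM count ran from 2 to 5 over the alternatives. All 4 HT mice exceeded all 4 WT mice for Atp1b2 and Slc4a4, 2 of 10 genes, as did 1.82% of the genome. The same pair were the genes in which all HM mice exceeded all WT mice, as did 2.41% of the genome. Genes in which every mouse of both mutants lay above every WT mouse made up 0.538% of 17853 genes.

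Both glutamate transporters were above WT on average in both mutants, and neither passed the adjusted test. Slc1a2 (ENSMUSG00000005089, chr2:102658659-102790784, plus strand) had 73512, 79640, 85286 and 83655 normalized counts in WT replicates 1 to 4, 86947, 89057, 84415 and 85952 in HT replicates 1 to 4, and 84839, 85763, 85171 and 86955 in HM replicates 1 to 4. WT replicates 1, 2 and 4 lay below every mutant mouse, WT replicate 3 lay among them, and the 4 HM mice were close together. HT mice differed from WT by 0.11 on the log2 scale (SE 0.05, adjusted p = 0.77 by limma) and HM mice by 0.09 (SE 0.04, adjusted p = 0.724), or 7.69% and 6.57% above WT. WT replicate 1 decided much of the size, for without it the log2 values were 0.06 and 0.05. Among mice whose animal numbers began alike, the HT difference was 0.14 in 1 set (2 HT and 1 WT mouse) and 0.01 in another (2 and 2). The HM differences, each of 1 HM and 1 WT mouse, were 0.21 and 0.13.

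Transcript length also moved with the Slc1a2 result. Its longest transcript has 11595 bases, and genes with a transcript of at least 7500 bases had a median log2 fold change of 0.05 in HT mice and 0.06 in HM mice, with 73.5% and 75.9% of them above 0. Genes under 2000 bases had medians of -0.04 and -0.04. After each mouse was corrected for transcript length and GC content, the Slc1a2 values were 0.06 in HT mice and 0.03 in HM mice.

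Slc1a3 (ENSMUSG00000005360, chr15:8634124-8710764, minus strand) had 15375, 14743, 16444 and 16573 normalized counts in WT mice, 15690, 16728, 16224 and 15858 in HT mice, and 15818, 16166, 16319 and 16956 in HM mice. WT replicates 1 and 2 were again the lowest, and WT replicates 3 and 4 lay above most mutants. Its log2 fold changes were 0.03 (95% interval -0.06 to 0.13) in HT mice and 0.05 (-0.04 to 0.14) in HM mice. Among mice whose animal numbers began alike, the HT differences were 0.14 and -0.04 and the HM differences, each of 1 HM and 1 WT mouse, 0.09 and 0.20, and the block for that start gave 0.14 in HM mice (unadjusted p = 0.00977, limma). The log2 ratio of Slc1a2 to Slc1a3 was 2.35 ± 0.07 (SD, n = 4) in WT mice, 2.43 ± 0.04 with 1 intact copy and 2.39 ± 0.03 with none, and neither difference passed a two-sided exact permutation test (p = 0.114 and 0.371, adjusted over 6 ratio tests to 0.686 and 0.743).

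Other genes that handle glutamate stood similarly near WT. Of 15 such genes, 12 had a log2 fold change above 0 in HT mice and 13 in HM mice, with medians of 0.05 and 0.04, and none passed the adjusted test. By unadjusted p, 3 were under 0.05 and higher in HM mice. These were Grm5 and Grm3, both metabotropic glutamate receptors, and Slc38a1, a glutamine transporter. Grm5 had 7389 ± 200.3 normalized counts in HM mice against 6815 ± 413 in WT mice, Grm3 had 1714 ± 72.3 against 1579 ± 58.7, and Slc38a1 had 7845 ± 253 against 7381 ± 238. Glul, the glutamine synthetase of astrocytes, was singled out after its values were seen, and its log2 fold changes were 0.01 in HT mice and 0.00 in HM mice.

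**Figure D2:**
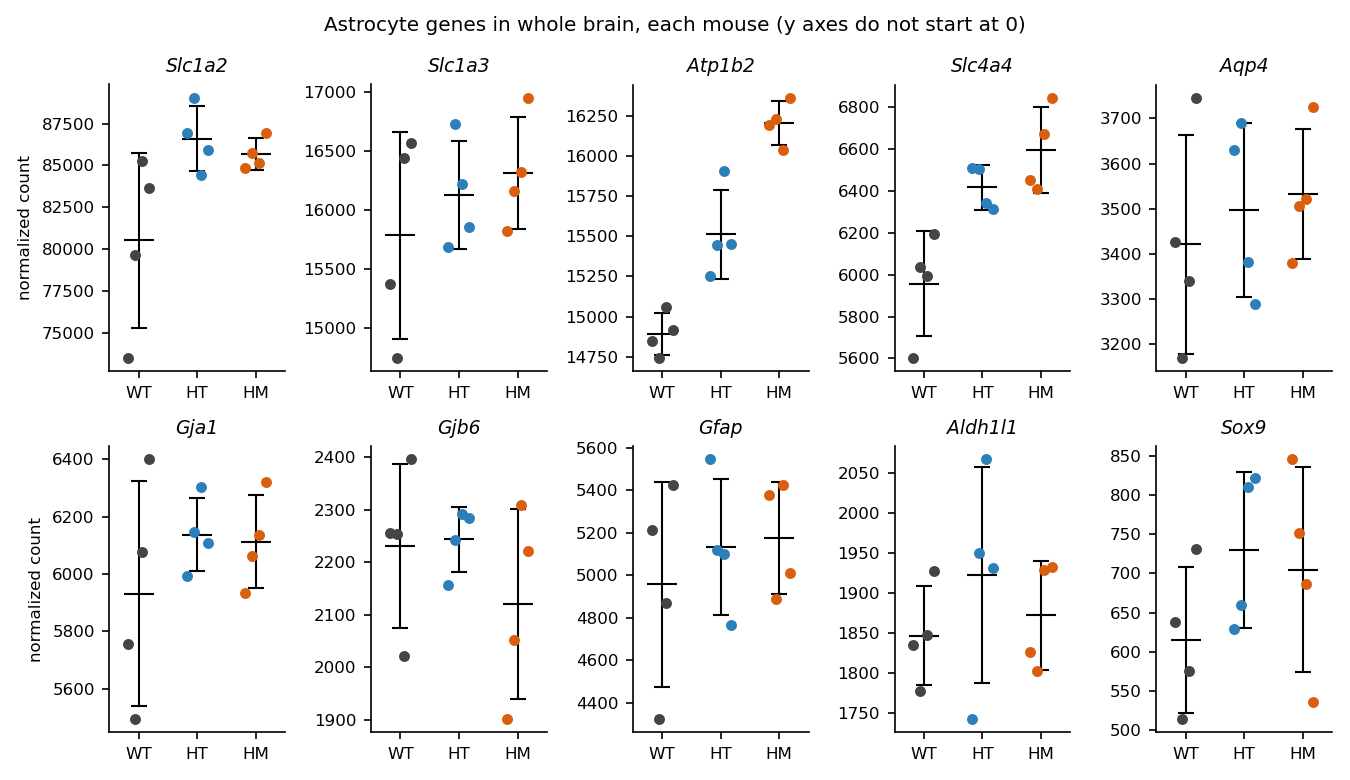
Normalized counts of the 10 astrocyte genes in each mouse (points, 4 per genotype) with the mean and SD (bars); the y axes do not start at 0. For Atp1b2 the HM mice sit between 16035 and 16364 and the WT mice between 14743 and 15059, while Gfap, Aqp4 and Gja1 overlap across all genotypes.

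Atp1b2 showed the tightest values and a stepwise order of the genotypes. Atp1b2 (ENSMUSG00000041329, chr11:69599736-69605942, minus strand) had 14848, 14743, 15059 and 14914 normalized counts in WT mice, 15253, 15447, 15905 and 15451 in HT mice, and 16194, 16228, 16035 and 16364 in HM mice. Every HT mouse lay above every WT mouse and every HM mouse lay above every HT mouse. The share of all genes in this full order was not counted. Atp1b2 was among the 0.538% of genes in which every mouse of both mutants lay above every WT mouse. On the log2 scale HT mice exceeded WT by 0.06 (SE 0.03, adjusted p = 0.814) and HM mice by 0.12 (SE 0.03, unadjusted p = 0.00132, adjusted p = 0.553), or 4.17% and 8.82% above WT. In HM mice it ranked 38 by p among 18004 genes, and adjusted p-values from the alternatives ran from 0.384 to 0.874. The paper's DESeq2 test, unlike limma here, called Atp1b2 higher in homozygous mice. Its SD within genotypes was 0.02 on the log2 scale, and 0.0109% of 9167 genes that averaged at least 500 normalized counts had a smaller one, against a median of 0.08. The WT mice had a coefficient of variation of 0.889%, and counting reads alone at this level would give 0.802% if 1 normalized count were 1 read. Its transcript has 2842 bases, and after the length and GC correction the values were 0.07 in HT and 0.12 in HM mice. With quantile normalization, which gives every mouse the same distribution of values, they were 0.03 and 0.09. Among mice whose animal numbers began alike, the HM differences, each of 1 HM and 1 WT mouse, were 0.11 and 0.15. The HT differences were 0.06 (2 HT and 1 WT mouse) and 0.06 (2 and 2).

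Around Atp1b2, 6 of the 8 genes listed for the sodium pump were above 0 in each mutant, with medians of 0.05 and 0.03, and none passed the adjusted test.

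Slc4a4 was the other gene that lay above WT in every mutant mouse. Slc4a4 (ENSMUSG00000060961, chr5:88886818-89239653, plus strand) had 5602, 6036, 5996 and 6195 normalized counts in WT mice, 6512, 6508, 6341 and 6312 in HT mice, and 6452, 6409, 6674 and 6847 in HM mice. WT replicate 1 was the lowest of all, the HT and HM mice overlapped each other, and neither overlapped WT. On the log2 scale the HT mice were 0.11 above WT (SE 0.04, unadjusted p = 0.018, adjusted p = 0.768) and the HM mice 0.15 (SE 0.04, unadjusted p = 0.00335, adjusted p = 0.643), or 7.79% and 10.7% above WT. Leaving out each mouse in turn kept the values between 0.08 and 0.13 in HT mice and between 0.12 and 0.17 in HM mice. Its longest transcript has 7931 bases, in the class of long transcripts described for Slc1a2, and the length and GC correction gave 0.07 in HT and 0.11 in HM mice. Among mice whose animal numbers began alike, the HT differences were 0.11 (2 HT and 1 WT mouse) and 0.05 (2 and 2). The HM differences, each of 1 HM and 1 WT mouse, were 0.25 and 0.18.

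The remaining bicarbonate and pH genes were spread around 0. Of 9 genes, 2 were above 0 in HT mice and 5 in HM mice, with medians of -0.01 and 0.02, and none passed the adjusted test. Slc4a8, a sodium-driven chloride bicarbonate exchanger, had 5704 ± 325 normalized counts in HM mice against 5087 ± 395 in WT mice, or 0.17 higher on the log2 scale (SE 0.06, limma, unadjusted p = 0.0137), and its genotypes overlapped.

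Aqp4 and the connexins of astrocyte networks overlapped across the genotypes. Aqp4 (ENSMUSG00000024411) ran from 3169 to 3746 normalized counts in WT mice, 3288 to 3690 in HT mice and 3379 to 3726 in HM mice, with log2 fold changes of 0.03 (95% interval -0.09 to 0.15) and 0.05 (-0.07 to 0.16), the latter 0.14 with the animal-number block (unadjusted p = 0.0833, limma). The WT mice held both the lowest and the highest value. Leaving out each mouse in turn gave HM values from 0.01 to 0.09. Among 8 genes that anchor channels at the endfoot, 2 were above 0 in HT mice and 4 in HM mice, with medians of -0.02 and 0.02. Dag1, which encodes dystroglycan, had log2 fold changes of 0.12 (SE 0.05) and 0.12 (SE 0.04), and in HM mice it lay between 3511 and 3550 normalized counts, above the WT range of 3057 to 3450. Dmd, which encodes dystrophin, had a log2 fold change of 0.12 (SE 0.05) in HM mice, and neither gene passed the adjusted test.

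Gja1 (ENSMUSG00000050953) ran from 5494 to 6400 normalized counts in WT, from 5994 to 6302 in HT and from 5933 to 6319 in HM mice, and both mutants lay inside the WT range. Its log2 fold changes were 0.05 (95% interval -0.05 to 0.15) and 0.05 (-0.06 to 0.15), and the animal-number block gave 0.15 in HM mice (unadjusted p = 0.0183, limma). Without WT replicate 2 the values were 0.02 in HT and 0.01 in HM mice, and without WT replicate 4 they were 0.09 and 0.08. Gjb6 (ENSMUSG00000040055) had 2255, 2253, 2021 and 2396 normalized counts in WT mice, 2157, 2242, 2291 and 2284 in HT mice, and 1901, 2052, 2308 and 2222 in HM mice. HM replicate 1 was the lowest of the 12 and WT replicate 4 the highest. Gjb6 was the gene of the 10 with a negative value in HM mice, a log2 fold change of -0.07 (95% interval -0.22 to 0.07). Leaving out each mouse in turn gave -0.12 to -0.02. The log2 ratio of Gja1 to Gjb6 was 1.41 ± 0.13 (SD, n = 4) in WT mice, 1.45 ± 0.02 with 1 intact copy and 1.53 ± 0.10 with none, and the exact permutation p-values were 0.6 and 0.229. Of 10 other connexin and pannexin genes, 5 were above 0 in HT mice and 8 in HM mice, and none passed the adjusted test. Gja5, which encodes the vascular connexin 40, had a log2 fold change of 0.78 (SE 0.35) in HT mice from 14.9 to 25.3 normalized counts, a level at which few reads set the value.

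Gfap did not separate the genotypes. Gfap (ENSMUSG00000020932, chr11:102887336-102900912, minus strand) had 5213, 4321, 4870 and 5424 normalized counts in WT mice, 5548, 5117, 5102 and 4766 in HT mice, and 5376, 4889, 5424 and 5012 in HM mice. WT replicate 2 was the lowest, and without it the HT value went from 0.05 to -0.01 and the HM value from 0.07 to 0.00. On the log2 scale HT mice differed from WT by 0.05 (95% interval -0.09 to 0.20) and HM mice by 0.07 (-0.07 to 0.21), so changes of up to 14.6% and 15.3% above WT lay within the intervals. Of the genes that mark reactive astrocytes, 17 were tested in HT mice with 4 above 0 and 13 below, and 18 in HM mice with 11 above and 7 below. None passed the adjusted test. Vim, a second filament gene that rises in reactive astrocytes, had 986 ± 74.2 normalized counts in HM mice against 1132 ± 109 in WT mice, which on the log2 scale was -0.20 (SE 0.08, limma, unadjusted p = 0.0224). Lcn2, a secreted protein of reactive astrocytes, had 22.7 ± 17.3 normalized counts in HM mice against 7.47 ± 1.81 in WT mice, again a level set by few reads. Cd14, which microglia also express, had a log2 fold change of -0.42 (SE 0.18) in HT mice.

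Aldh1l1 and Sox9 were the lowest of the 10 genes and differed in spread. Aldh1l1 (ENSMUSG00000030088) ran from 1778 to 1927 normalized counts in WT, from 1742 to 2067 in HT and from 1802 to 1932 in HM mice, with log2 fold changes of 0.06 (95% interval -0.06 to 0.17) and 0.02 (-0.08 to 0.12). Leaving out each mouse in turn gave 0.02 to 0.10 in HT mice and 0.001 to 0.04 in HM mice. Of 10 other folate enzyme genes, 4 were above 0 in each mutant and none passed the adjusted test. Shmt1, a serine hydroxymethyltransferase, had a log2 fold change of 0.46 (SE 0.18) in HT mice, and Aldh1l2, the mitochondrial relative of Aldh1l1, had 0.29 (SE 0.13) in HM mice; Shmt1 had 106 normalized counts in HT and Aldh1l2 had 193 in HM mice.

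Sox9 (ENSMUSG00000000567) had 639, 514, 575 and 732 normalized counts in WT mice, 630, 659, 810 and 822 in HT mice, and 846, 751, 687 and 536 in HM mice. All genotypes overlapped, and HM mice held both the highest value of the 12 and one below most WT mice. The HT mice were 0.25 above WT on the log2 scale (SE 0.11, adjusted p = 0.77 by limma) and the HM mice 0.19 (SE 0.13, adjusted p = 0.804). Without HM replicate 1 the HM value was 0.10 and without HM replicate 4 it was 0.32. The SD of Sox9 within genotypes was 0.23 on the log2 scale, and 1.08% of those 9167 genes had a larger one. Of 10 other transcription factors of glia, 8 were above 0 in HT mice and 7 in HM mice, with medians of 0.09 and 0.02, and none passed the adjusted test. Emx2, a forebrain homeobox gene, had log2 fold changes of 0.20 (SE 0.09) in HT mice and -0.36 (SE 0.11) in HM against HT mice. Nfix, a nuclear factor I gene, had 0.10 (SE 0.04) in HM mice.

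The direct comparison of the mutants gave small differences in both directions. In HM against HT mice, 5 of the 10 genes were above 0 and 5 below, against 49.5% above 0 over all 17986 genes tested, and none passed the adjusted test, as did 0.00556% of all genes. Atp1b2 was the one gene of the 10 with an unadjusted p under 0.05 (0.0386, limma), with a log2 fold change of 0.06 (95% interval 0.00 to 0.12), where 2.11% of all genes were that low and higher. It was also the one gene whose mutants did not overlap, as did not 1.24% of all genes with HM above HT. Over the alternatives the unadjusted p of Atp1b2 in this comparison ran from 0.0226 to 0.0944 (limma). After the length and GC correction none of the 10 genes was under 0.05. For Slc1a2 the difference was -0.02 (-0.08 to 0.05), for Slc4a4 0.04 (-0.03 to 0.11) and for Gjb6 -0.08 (-0.21 to 0.04).

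Averaged over the 10 genes, WT mice differed among themselves by more than the genotypes did. WT replicate 2 was the lowest of the 12 mice for 6 of the 10 genes, and WT replicate 4 was the highest of its genotype for 8. The averaged log2 values relative to the WT mean were -0.08 in WT replicate 2 and 0.10 in WT replicate 4. The HT mice lay between 0.05 and 0.10 and the HM mice between 0.06 and 0.09, so every mutant mouse stood above WT replicates 1 to 3, and WT replicate 4 stood above every mutant mouse but HT replicate 3. The summed counts of the 10 genes were 128462 to 141964 in WT, 142770 to 147544 in HT and 142564 to 146869 in HM mice. Slc1a2 supplied 59.5% of this sum, and without it the sums of 53051 to 58309 in WT, 56819 to 58487 in HT and 57726 to 59914 in HM mice overlapped.

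**Figure D3:**
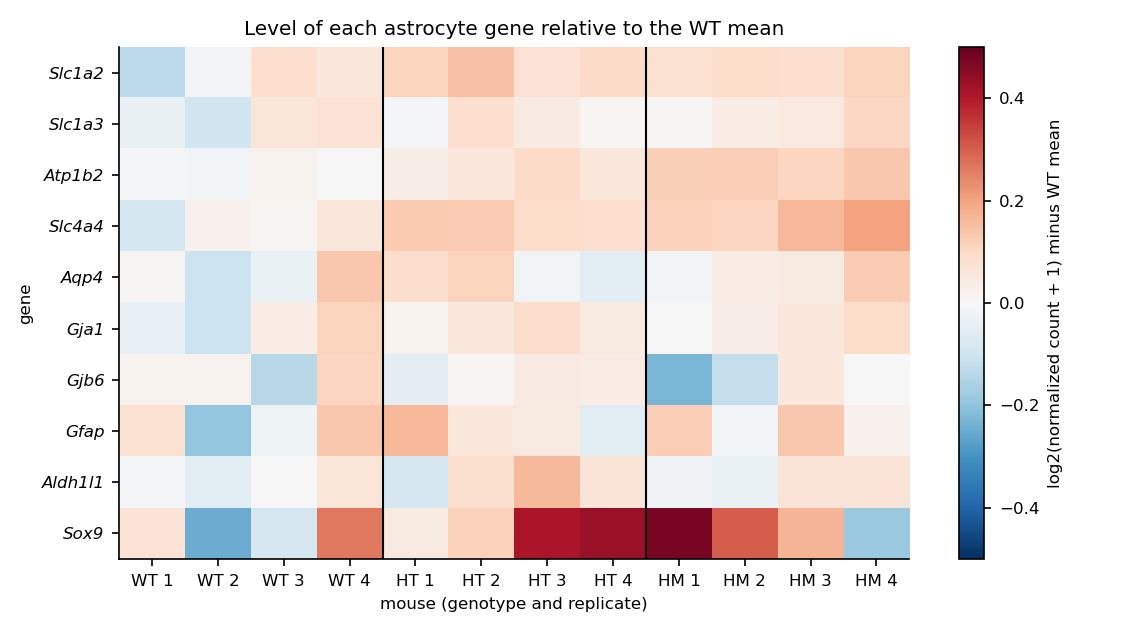
Log2(normalized count + 1) of the 10 astrocyte genes in each of the 12 mice, relative to the WT mean of the gene (red above, blue below). WT replicate 2 is the lowest of the 12 mice for 6 genes, and Sox9 varies most within genotypes.

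Other genes of astrocytes stood closer to WT. Of 28 further astrocyte genes, 15 were above 0 and 13 below in HT mice, with a median of 0.00, and 22 were above and 6 below in HM mice, with a median of 0.02. None passed the adjusted test. Etnppl, an enzyme of phosphoethanolamine breakdown, had 1635 ± 73.7 normalized counts in HT mice against 1432 ± 72.8 in WT mice, or 0.19 higher on the log2 scale (SE 0.05, adjusted p = 0.75), without overlap. Htra1, a secreted protease, had -0.10 (SE 0.04) in HT mice. Ntsr2, a neurotensin receptor of astrocytes, had 3742 ± 90.3 against 3385 ± 63.2 in HM mice, a log2 fold change of 0.14 (SE 0.04, adjusted p = 0.575), also without overlap. Slc6a11, a GABA transporter of astrocytes, had 0.12 (SE 0.04) in HM mice, and Sparc, a secreted matrix protein, had 0.11 (SE 0.04). The last 2 belong to 8 genes that vary among astrocytes of different regions, of which 7 were above 0 in HT mice and 6 in HM mice.

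Markers of other cell types stood on either side of WT. Of 10 neuron markers, 8 were above 0 in HT mice and 9 in HM mice, with medians of 0.04 and 0.04, summing to 230403 to 248047 normalized counts in WT, 239969 to 253964 in HT and 244221 to 249621 in HM mice. All 10 microglia markers were below 0 in HM mice, with a median of -0.09 and sums of 10050 to 11199 in HM and 10518 to 12313 in WT mice. Of 7 endothelial markers, 6 were above 0 in each mutant, with medians of 0.14 and 0.14, and WT replicate 2 had the lowest sum, 5425, as it did for many of the astrocyte genes. Oligodendrocyte markers had medians of -0.03 and 0.00, with sums of 182565 to 212079 in WT and 178786 to 211006 in HM mice. No marker of any of these lists was at 0 in any mouse, and none passed the adjusted test. Their part in the values of the 10 astrocyte genes was not tested.

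**Figure D4:**
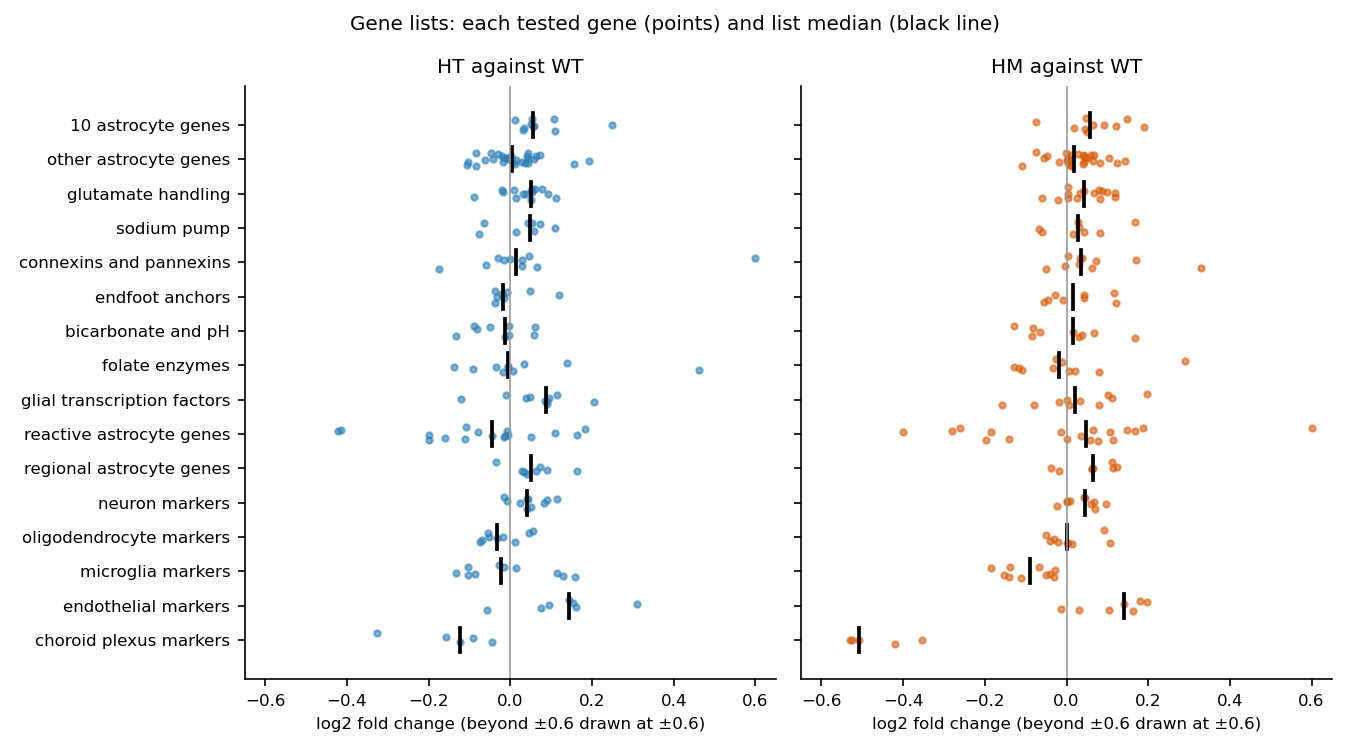
Log2 fold changes of the tested genes of each list (points) and the list median (black line) in HT and HM against WT mice, with values beyond 0.6 drawn at the edge. The medians of the 10 astrocyte genes are 0.05 and 0.06, those of the endothelial markers 0.14 and 0.14, and the choroid plexus markers lie lowest in HM mice at -0.51.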

How the data were processed

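RNA of 12 whole mouse brains was sequenced as paired ends by the authors. The deposited values are a normalized count signal: per the study's methods, the authors quantified reads with Salmon 1.1.0 on GRCm38 with GC bias correction, summed them to genes with tximport and divided them by DESeq2 1.30.1 size factors. Reads before scaling were not analysed here, so no count model was fitted. Genotypes were compared with limma 3.58.1 (R 4.3.3, variance prior with a trend) on log2(normalized count + 1), for genes that averaged at least 10 over the 8 mice of a comparison, with Benjamini-Hochberg adjustment and a threshold of 0.05, and the method was tested on simulated data. Fold changes on this scale understate changes of low genes. GENCODE M21 held 19758 of the 19775 gene identifiers. Ratios were tested by exact permutation of the mice (two-sided), whose smallest p is 0.0286 with 4 against 4 mice. Named were the 10 genes, Slc6a20a, up to 3 genes per list and comparison with the smallest unadjusted p under 0.05, and the 5 genes most like the mean of the 10. Some genes and the ratio and correlation that use them are not reported here. The genes and lists were chosen with earlier results of these data known. The lists for cell types and pathways also held ependymal and meningeal markers, oligodendrocyte precursor and cerebellar markers. The sources used here do not say which mice were littermates, and p-values measure the spread between these mice. Alternatives were a pseudocount of 0.1, other filters, 1 fit of all 12 mice, blocks for the replicate number or the start of the animal number, other scalings, a loess correction (span 0.4) for length and GC content, a variance prior without a trend, and leaving out each mouse. Python 3.11.15, numpy 2.4.6, scipy 1.17.1, pandas 2.3.3 and matplotlib 3.10.9 were used.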

Additional observations from a re-analysis of the deposited data

How the results depend on the processing

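None of the 10 astrocyte genes passed the adjusted test in any of the 3 comparisons under any of the 18 alternatives of each. Of 180 log2 fold changes recomputed per comparison, 176 kept their direction in HT against WT, 179 in HM against WT and 165 in HM against HT. With a block for the start of the animal number, fold changes are set by mice whose start occurs in both genotypes. Gjb6 in HM against WT mice was then 0.00699, and in HM against HT mice Gfap was -0.0882, Aldh1l1 0.0679, Gja1 0.0582 and Gjb6 0.0149. The same block gave 5 of the 10 genes an unadjusted p under 0.05 in HM mice, with Slc1a2 at 0.17, Slc4a4 at 0.22, Slc1a3 at 0.14, Gja1 at 0.15 and Atp1b2 at 0.13 (the p of Gfap and Aqp4, at 0.14 each, and Aldh1l1, at 0.10, was above 0.05), and the smallest adjusted p was 0.471 (limma). In HT mice it left 1 gene, Sox9, under that threshold at 0.33, with Slc1a2 at 0.06. The HM against WT values of this block came from HM replicates 3 and 4 and WT replicates 1 and 2. Its HM against HT values came from HM replicate 4 with HT replicates 1 and 2. WT replicate 1 had no part in its HT against WT values. Whether the starts mark litters or another kind of set was not tested.

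Leaving out each mouse in turn gave HT against WT values from -0.0107 to 0.0986 for Gfap, -0.00281 to 0.0776 for Aqp4, -1.62e-04 to 0.0561 for Slc1a3 and -0.0364 to 0.0455 for Gjb6. In HM against HT mice the ranges were -0.0225 to 0.0505 for Gfap, -0.0137 to 0.0418 for Aqp4, -0.00183 to 0.0347 for Slc1a3, -0.022 to 0.00832 for Gja1 and -0.154 to 0.0653 for Sox9. The ratio of Gja1 to Gjb6 ran from -7.09e-04 to 0.10 in HT against WT mice. Genes past the adjusted threshold, of all genes tested, numbered 1 in HT against WT (0 without a trend, with 1014 at an unadjusted p under 0.05; 1 to 5 when a mouse was left out), 2 in HM against WT (1 without a trend, 2 to 3 when a mouse was left out) and 1 in HM against HT (2 without a filter, 3 with the animal-number block, 1 to 7 when a mouse was left out).

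With the replicate number as a block, the count in HM against WT went from 2 to 1 and stayed 1 in the other comparisons, and Atp1b2 in HM mice had an unadjusted p of 0.00743 (limma). Deviations of mice with the same number correlated between -0.08 and 0.10, and not every mouse correlated best with its own number, so the numbers were not taken to pair mice. For mice of different genotypes whose animal numbers began alike, the median correlation was 0.03, against -0.01 for the other pairs.

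With 4 mice per genotype, differences in the range of the intervals given could not be told from 0. Normalized values hide the depth of each library, and a whole brain averages over regions and cell types.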

Other observations

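The genes whose levels ran most closely with the mean of the 10 astrocyte genes, after centring within genotypes, were Zic2 (Pearson r 0.97), Fnbp1 (0.94), Ranbp3l (0.92), Cpq (0.92) and Ephb4 (0.91), the highest of 13116 genes that averaged at least 100 normalized counts. Zic2 is a zinc finger transcription factor of the developing forebrain and Ephb4 a receptor of vessels. All of these genes were read from the same 12 libraries, 1 per mouse, and the values carry no test. In the mean of the 10 genes, WT replicate 2 (-0.08) and WT replicate 4 (0.10) lay farthest from their genotype mean. The r values rest largely on these mice and were not repeated without them.

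Over the same mice, Slc1a2 and Slc1a3 had a Pearson r of 0.62 within genotypes (permutation p = 0.175, adjusted over 3 pairs to 0.344) and a Spearman rho of 0.70 (permutation p = 0.0704, adjusted 0.142), and r was 0.77 when the 2 mice with the most extreme Slc1a2 were left out. For Gja1 and Gjb6, r was 0.34 (permutation p = 0.397, adjusted 0.397), rho 0.58 (permutation p = 0.0947, adjusted 0.142) and r without 2 mice 0.32. Neither of these pairs passed the adjusted test.

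Among other marker lists, 3 oligodendrocyte precursor markers were all above 0 in both mutants, with medians of 0.02 and 0.03. Ependymal markers had medians of -0.08 and -0.12, meningeal markers -0.09 and -0.16, and cerebellar markers 0.06 and -0.10. Hemoglobin genes and Alas2 were below 0 in HT mice in 5 of 5 cases, with a median of -0.83, and none passed the adjusted test.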
